A study of Rattus norvegicus with 6 samples.

Results

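The CpGs described here are autosomal positions of extreme coverage in the hippocampal libraries of 6 rat pups. For each sample the median coverage (the count of reads over a CpG) was taken over all its listed CpGs on chromosomes 1 to 20, and a CpG was a member when its coverage was at least 10 times that median in every one of the 6 samples. The rule kept 9130 CpGs of 21344245 autosomal CpGs listed in at least 1 sample (0.0428%), out of 22152541 listed CpGs in all. Coverage itself chose these CpGs, so their coverage is given below as a description, while their methylation was not used by the rule.

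The data are whole genome bisulfite sequencing (WGBS) of hippocampi from CD1 Sprague-Dawley rat pups at postnatal day 15. The 3 iron-deficient pups were from dams given a diet with 4 ppm iron from gestational day 2 until postnatal day 7 and with 200 ppm iron from then on. The 3 iron-sufficient pups were from dams given 200 ppm iron throughout. All dams were therefore on 200 ppm iron for the last days before dissection, and the whole hippocampus, a mixture of neurons and glia, was used. Bisulfite turns unmethylated cytosine into a base read as thymine, so the share of reads that keep the cytosine gives the methylation level of a CpG. The autosomal median coverage was 22, 23 and 28 in iron-sufficient replicates 1, 2 and 3 and 28, 34 and 18 in iron-deficient replicates 1, 2 and 3, and the corresponding thresholds for a member were 220, 230, 280, 280, 340 and 180 reads. Below, relative coverage is the coverage of a CpG divided by this median of its sample.

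Much of a mammalian genome consists of repeats. Satellite DNA is made of tandem copies of a short unit and fills the regions around centromeres, while segmental duplications and gene families are longer copies that lie apart. In somatic tissue such as brain, satellites and other repeats are usually heavily methylated, whereas CpG-dense promoters are usually free of methylation. Where an assembly holds fewer copies of a repeat than the animal, reads of all copies pile up at the same positions. A read from any copy can align only to the copies that the assembly holds, so that methylation at such a position is a mean over all copies that were read there.

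Sequences were not read from rn4, the build of the files, but the spacing between neighbouring CpGs could be compared with the promoters of RefSeq (assembly GRCr8, 250 bases before to 50 after each gene start). Of 33469 promoters, 14813 held at least 9 CpGs, and 13140 of these shared a run of 8 consecutive CpG distances with the listed autosomal CpGs. Over all promoters, 12406 matched on 1 chromosome only, and for 12321 of them (99.3%) it was the chromosome that RefSeq gives. Of 1385 such runs made of members alone, 34 (2.45%) matched a promoter, against 1.02% of all autosomal runs. These shares were not matched for CpG density. The member runs matched 27 promoters of 21 gene symbols, which is 0.182% of the promoters with at least 9 CpGs. This agreement of chromosomes did not hold for them. Of the 27 promoters, 6 matched on 1 chromosome only, which was the chromosome of RefSeq for 1 (Fcgr2a) and another chromosome for 5. Of these 27 promoters, 22 were on GRCr8 chromosome 9 and belonged to 16 symbols. The other promoters were 3 on chromosome 3, 1 on chromosome 11 and 1 on chromosome 13. The sequences of 4 of them are shown because they carry the spacing of nearly unmethylated and of intermediately methylated members. Each is written 5′ to 3′ in lower case, and the CpGs whose spacing is shared with members are in capitals.
LOC134480529: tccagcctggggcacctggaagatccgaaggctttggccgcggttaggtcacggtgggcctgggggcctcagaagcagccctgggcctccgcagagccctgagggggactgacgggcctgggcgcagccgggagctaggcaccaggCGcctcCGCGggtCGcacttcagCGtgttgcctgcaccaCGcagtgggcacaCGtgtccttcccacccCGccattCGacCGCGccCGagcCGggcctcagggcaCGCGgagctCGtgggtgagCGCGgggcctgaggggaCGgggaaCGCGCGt
LOC134480543: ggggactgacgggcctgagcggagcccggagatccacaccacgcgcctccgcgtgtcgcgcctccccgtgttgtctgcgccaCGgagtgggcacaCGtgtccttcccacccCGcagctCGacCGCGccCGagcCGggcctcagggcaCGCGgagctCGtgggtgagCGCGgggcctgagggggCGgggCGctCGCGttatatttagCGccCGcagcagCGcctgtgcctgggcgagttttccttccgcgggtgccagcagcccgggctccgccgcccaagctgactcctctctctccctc
LOC134486237: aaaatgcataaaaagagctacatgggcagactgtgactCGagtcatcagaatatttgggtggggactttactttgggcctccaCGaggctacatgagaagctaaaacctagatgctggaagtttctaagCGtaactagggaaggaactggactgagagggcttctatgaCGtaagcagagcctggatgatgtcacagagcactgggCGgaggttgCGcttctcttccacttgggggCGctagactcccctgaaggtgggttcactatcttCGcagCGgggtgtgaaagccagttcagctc
LOC134486241: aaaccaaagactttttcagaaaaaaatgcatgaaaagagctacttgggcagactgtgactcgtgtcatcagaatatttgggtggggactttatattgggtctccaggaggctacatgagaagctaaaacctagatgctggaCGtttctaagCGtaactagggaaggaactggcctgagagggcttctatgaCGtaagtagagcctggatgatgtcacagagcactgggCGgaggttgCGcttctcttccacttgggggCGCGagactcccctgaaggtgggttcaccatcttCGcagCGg
A match of spacing is a description of distances and not an alignment, and coordinates were not carried from one build to the other.

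The LOC134480529 promoter (GRCr8 chr9:16607527-16607826, minus strand, a protein-coding gene model) shared the spacing of 22 of its 30 CpGs with members at rn4 chr4:57851755-57851906. The LOC134480543 promoter (GRCr8 chr9:17801987-17802286, plus strand, also a protein-coding gene model) shared the spacing of 20 of its 37 CpGs with members at several places, among them rn4 chr9:5686414-5686504. These CpG-dense members were nearly free of methylation. At rn4 chr9:5686414-5686504, where 14 members lie, the methylation level was 1.84, 2.89 and 2.95% in iron-sufficient replicates 1, 2 and 3 and 2.72, 5.85 and 2.18% in iron-deficient replicates 1, 2 and 3. The groups overlap. The relative coverage there was 21.5, 16.0 and 26.7 in the iron-sufficient and 28.9, 17.7 and 20.4 in the iron-deficient replicates.

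Promoters of LOC134486237 (GRCr8 chr3:7498775-7499074, plus strand, a protein-coding gene model) and LOC134486241 (GRCr8 chr3:8113427-8113726, plus strand, a long noncoding RNA) each shared the spacing of 9 CpGs with members on rn4 chromosome 16 and with no other autosome, so that both are among the 5 promoters matched on another chromosome than that of RefSeq. The members that share the spacing of LOC134486237 lie at chr16:27918576-27918813 and were methylated at 69.1, 70.7 and 67.9% in the iron-sufficient and at 70.3, 69.8 and 72.5% in the iron-deficient replicates. Those that share the spacing of LOC134486241 lie at chr16:27275397-27275553, with 61.1, 58.2 and 58.3% in the iron-sufficient and 61.9, 63.1 and 62.0% in the iron-deficient replicates. Spacing identical to that of LOC134486237 was found in the promoters of LOC134486245 on GRCr8 chromosome 3 and LOC134481119 on GRCr8 chromosome 11, which are also among these 5. The 1 named gene among the matches was Fcgr2a, which encodes a receptor for the constant part of immunoglobulin G. Its promoter (GRCr8 chr13:85828636-85828935, minus strand) shared 9 CpGs with members at rn4 chr13:86913662-86913704, where methylation was 2.28, 7.02 and 3.88% in the iron-sufficient and 3.66, 2.60 and 6.05% in the iron-deficient replicates.

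Members were grouped into 1660 regions by joining neighbours at most 500 nucleotides (nt) apart. Of these regions, 548 held a single member, and the 500 regions with at least 5 members held 6920 members. The median length of these 500 regions was 562 nt (quartiles 313 and 1106) and the longest region spanned 8177 nt. Members lay on all 20 autosomes but were unevenly spread. Chromosome 16 held 3648 members (40.0%) with 3.48% of the listed autosomal CpGs, whereas chromosome 11 held 13 members with 3.27% of the CpGs. Chromosome 13 followed with 917 members and chromosome 14 with 675.

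Joined within 100 kb, the members formed 324 clusters, 92 of which were single CpGs. The cluster with the most members spanned 820.6 kb at chr16:27193792-28014406 and held 3261 members, 35.7% of all. Of the 7218 CpGs in its span that were listed in all 6 samples, 45.2% were members. The clusters that followed were on chr18:38706373-38832598 with 543 members, chr14:4301684-4669973 with 451, chr13:30374100-30493192 with 388 and chr4:75829743-75907461 with 270. In the chromosome 4 cluster, 69.2% of the CpGs listed in all 6 samples were members, the highest share among the 10 clusters with the most members.

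Members had a median relative coverage of 28.9, 746 of them were at or above 100 times and 41 at or above 1000 times the median in every sample. The coverage fell steeply outside the regions. In regions with at least 5 members the median relative coverage (mean of the 6 samples) was 32.5 at members and 7.79 at the other CpGs between them. It was 8.76 in the first 50 nt outside a region, 2.86 between 100 and 200 nt, and 1.42 between 5 and 10 kb. Near the threshold, the 100 members just inside (lowest relative coverage 10 to 10.1) had a mean methylation level of 63.6%, and the 100 CpGs just outside (9.87 to 9.97) had 68.4%.

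**Figure D1:**
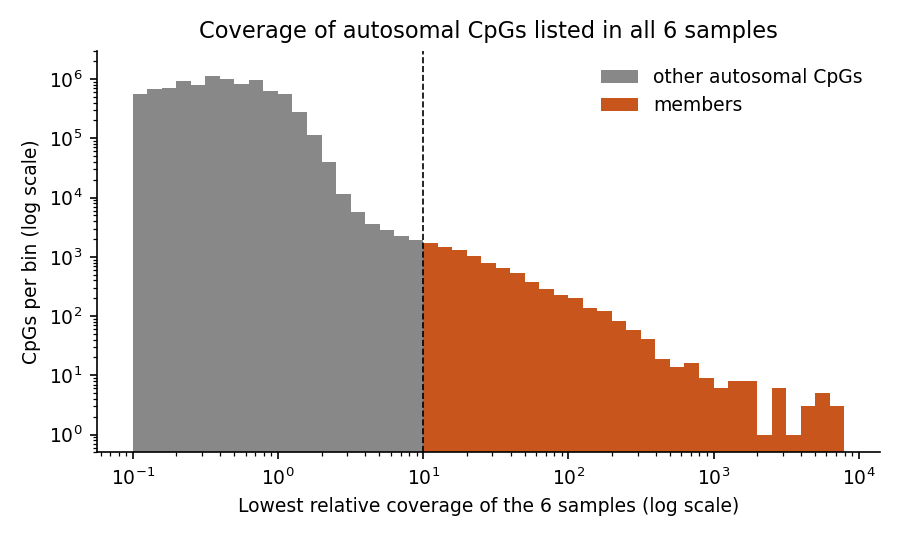
Number of autosomal CpGs listed in all 6 samples by the lowest relative coverage among the samples, from 0.1 upwards; both axes are logarithmic and the dashed line marks the threshold of 10. The members form a long tail without a gap at the threshold, with 41 CpGs at or above 1000.

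Together the members took 2.99, 2.80 and 3.07% of the autosomal coverage in iron-sufficient replicates 1, 2 and 3 and 2.61, 2.79 and 2.84% in iron-deficient replicates 1, 2 and 3. A few regions held much of this, since the 10 regions with the most coverage held 31.8% of all member coverage. By relative coverage, among regions with at least 5 members, the highest was chr2:156715755-156716862 with 28 members. Its relative coverage was 3174, 2125 and 3576 in the iron-sufficient and 2846, 2827 and 3243 in the iron-deficient replicates, while its methylation level was 89.3, 88.3 and 89.1% and 88.9, 89.9 and 89.7%. The second, chr3:148550987-148551680 with 22 members, had a mean relative coverage of 1705 and a methylation level of 85.7%. The third, chr10:29082126-29082714, had 1182 and 87.5%. The next 7 regions were between 334.8 and 613.0 in relative coverage and between 75.5 and 91.9% in methylation. Outside this group, chosen after its values were seen, a region of only 4 members at chr13:38126399-38126518 had a relative coverage of 1184 and a methylation level of 39.6%.

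The distances between CpGs were used to look for copies. A run of 5 consecutive distances was found again elsewhere on the autosomes for 750 of 2307 runs of members (32.5%), compared with 5.07% of 18465004 autosomal runs. Runs of CpGs overlap, so they are not independent and the shares are descriptions. The shares were not matched for CpG density, which was higher at members (median of 4 other CpGs within 100 nt, against 2). The member run found at the most places had the distances 23, 21, 24, 19 and 24 nt. Counted in either direction along the chromosome, it occurred at 64 places on 9 chromosomes, with members alone at 22 of them. On chromosome 18, 33 of the places lay in the cluster at chr18:38706373-38832598. Of the 8 autosomal runs that were also found in the mitochondrial genome, 1 was a run of members.

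Among the distances above 100 nt, 370 nt had the largest excess over its neighbouring distances. Of the members, 12.1% had a CpG exactly 370 nt away, against 2.84% of the other autosomal CpGs (1 in every 20 was sampled) and against a median of 2.85% of the members at neighbouring distances. Smaller peaks were at 140 nt (7.25% of the members and 3.17% of the other CpGs), 740 nt (6.07 and 2.48%), 230 nt (6.65 and 3.04%) and 413 nt (6.31 and 2.81%). Short distances were also frequent at members, with 13.6% at 43 nt, against 3.404% of the other CpGs, and 10.6% at 24 nt, against 3.78%. As background, the main centromeric satellite of the rat, satellite I, is a tandem repeat with a unit of about 370 base pairs. The sequence at these members was not used here, and whether they are satellite I was not tested.

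**Figure D2:**
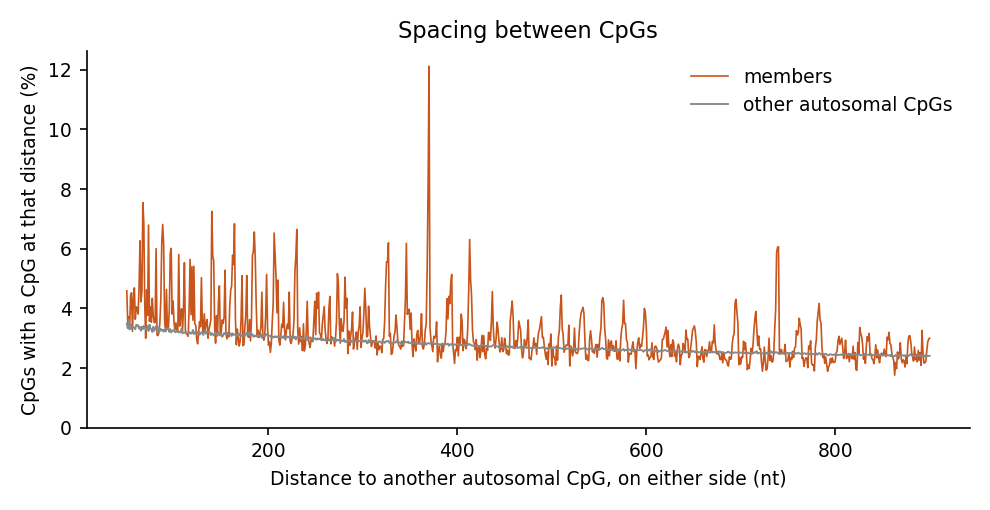
Percent of members (orange) and of other autosomal CpGs (grey) with another autosomal CpG at each distance from 50 to 900 nt on either side. The members show a peak of 12.1% at 370 nt and many smaller ones, and the other CpGs decline smoothly.

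Regions were then set apart by this spacing. In 98 regions at least 50% of the members, and at least 3 times as many as at neighbouring distances, had a CpG at a distance within 1 nt of 370. This definition was made after the peak was seen. These 370-nt regions held 1463 members on 15 chromosomes and 47.4% of the member coverage, and 7 of the 10 regions with the highest relative coverage were among them. The median relative coverage of the regions was 80.9, against 31.2 in the other regions with at least 5 members. Their methylation was higher as well. Of their reads, 82.7, 80.8 and 83.0% were methylated in iron-sufficient replicates 1, 2 and 3 and 82.7, 83.9 and 83.7% in iron-deficient replicates 1, 2 and 3. All other members had 63.9, 62.5 and 61.9% and 62.9, 63.6 and 63.9%. With each CpG counted once, the 370-nt regions were at 76.3% and all other members at 63.7%. The median over regions was 76.5%, against 69.8% in the other regions with at least 5 members. The lowest 370-nt region was at 48.3% and the highest at 94.3%.

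Over all members, 72.6, 70.7 and 72.6% of the reads were methylated in iron-sufficient replicates 1, 2 and 3 and 72.1, 73.3 and 73.5% in iron-deficient replicates 1, 2 and 3. The other autosomal CpGs had 68.4, 68.7 and 68.7% and 68.6, 69.9 and 70.0%. Members were higher in 6 of 6 animals, by 3.41 ± 0.72 percentage points (SD, n = 6), with p = 0.03125 in a two-sided exact sign-flip permutation test, the smallest p for 6 animals. This direction rested on the weight of the most covered regions. With each CpG counted once, members were at 65.7% and the other CpGs at 71.8%, and the difference was −6.08 percentage points, with members lower in all 6 animals (exact sign-flip p = 0.03125). Without the 10 regions with the most coverage the difference in reads was −1.72 percentage points, also with p = 0.03125 in the exact test. Over reads, members also exceeded the other CpGs with a coverage of at least 10 by 10.9 percentage points. The median level of single CpGs was 73.4% at members, 78.1% at those CpGs, 56.3% at the other CpGs with a coverage of at least 30 and 74.7% at the CpGs at 5 to 10 times the median.

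The level was similar over the classes of members below 100 times the median and higher above. The methylation level over reads was 66.2% at 10 to 20 times the median, 65.3% at 20 to 50 times, 64.9% at 50 to 100 times, 71.9% at 100 to 1000 times and 86.9% at or above 1000 times. Just below the members, CpGs at 5 to 10 times had 66.0% and CpGs at 2 to 5 times had 50.1%. At lower coverage the level was higher again, with 52.2% at 1 to 2 times, 64.7% at 0.5 to 1 times and 71.0% below 0.5 times. Members were CpG-dense, with a median of 4 other CpGs within 100 nt compared with 2 for the other autosomal CpGs. Within 3 Mb of the first position of a chromosome or of its last listed CpG lay 6.37% of the members and 4.18% of the other CpGs.

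Members were more often at intermediate levels than autosomal CpGs at large. Averaged over the animals, 53.0% of them were between 20 and 80% methylated, 9.64% were below 20% and 37.4% at 80% or more. Among the 4654126 other autosomal CpGs covered by 10 or more reads in each animal, 33.1% were between 20 and 80%, 19.4% below 20% and 47.6% at 80% or more. The CpGs at 5 to 10 times the median were close to the members, with 49.5% between 20 and 80%, 11.2% below 20% and 39.3% at 80% or more. Of the 500 regions with at least 5 members, 25 were below 20%, 86 between 20 and 60%, 278 between 60 and 80%, and 111 above 80%.

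**Figure D3:**
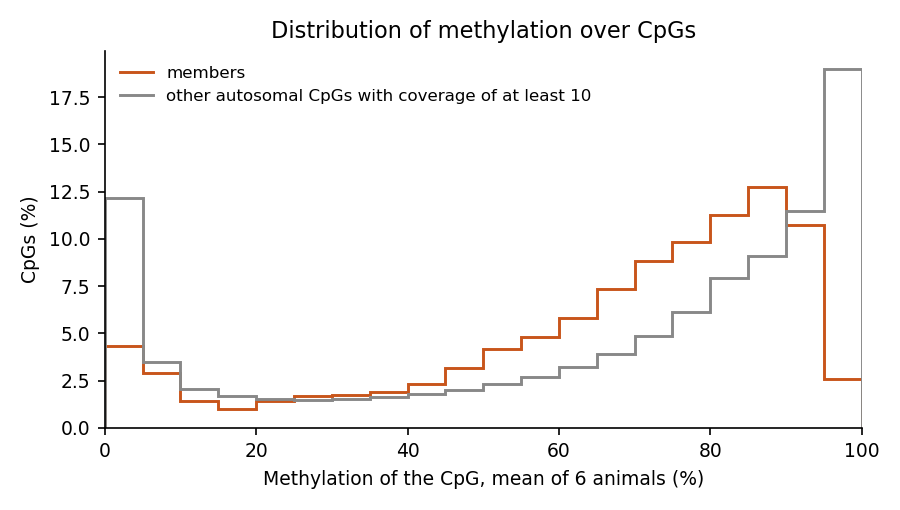
Distribution of the methylation level (mean of 6 animals, bins of 5 percentage points) over members and over other autosomal CpGs covered by 10 or more reads in each animal. Members pile up between 50 and 95%, and the other CpGs at both ends of the scale.

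The animals were closely alike at members. The SD between animals was taken within each diet group and pooled over both groups, so it leaves out the difference between the diets. Its median was 4.92 percentage points over members and 8.09 over the CpGs at 5 to 10 times the median. It was 16.4 over the other autosomal CpGs with a coverage of at least 10 and 10.9 over those with a coverage of at least 30. As root mean squares the SD between animals was 6.30, 9.84, 22.5 and 17.1 percentage points in the same sets, and counting of reads alone gave 1.54, 2.47, 4.75 and 3.59. Within the members the median SD decreased from 6.20 percentage points at 10 to 20 times to 0.82 at or above 1000 times the median. CpGs at 80% or more in one animal and below 20% in another were 3 of 9130 members (0.0329%), compared with 20.8% of the other CpGs with a coverage of at least 10, 9.25% of those with a coverage of at least 30 and 18 of 7104 CpGs (0.253%) at 5 to 10 times the median. For each animal the distance from the mean of the other 5 animals was taken at every CpG. Over members its median was between 2.89 and 4.65 percentage points in the 6 animals. It was between 9.56 and 12 over the other CpGs with a coverage of at least 10, and between 6.34 and 7.76 over those with a coverage of at least 30. Depth differs between these sets by the rule itself, and its part in the spread was not tested beyond these values.

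**Figure D4:**
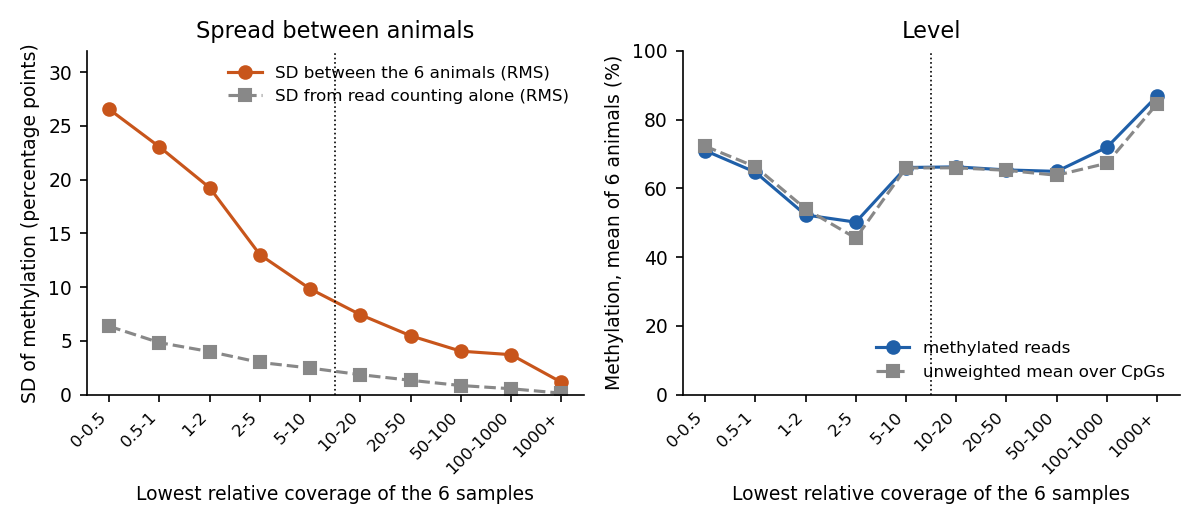
Left, SD of methylation between animals and SD from read counting alone (both root mean squares) by class of lowest relative coverage. The SD named in the legend as between the 6 animals was taken within each diet group and pooled over both groups. Right, methylation level in the same classes (mean of 6 animals), over reads and with each CpG counted once. The dotted line separates members (right of it) from other CpGs. The level over reads falls from 71.0% below 0.5 times to 50.1% at 2 to 5 times, and it is 86.9% at or above 1000 times.

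Some clusters and regions of members had low methylation. In the cluster at chr4:75829743-75907461 the methylation level was 17.6, 17.3 and 18.4% in iron-sufficient replicates 1, 2 and 3 and 15.9, 18.8 and 21.3% in iron-deficient replicates 1, 2 and 3. Its region with the most members, chr4:75900551-75903748 with 101 members at a mean relative coverage of 89.2, had 12.8%. Its first region, chr4:75829743-75829861 with 18 members, had 2.89%, the lowest of all regions with at least 5 members. The second lowest was chr9:5686414-5686504, described above, and the third was chr20:3539245-3539326 with 3.24%. A further cluster of low methylation was chr13:86911918-86962999 with 224 members, at 18.9, 21.7 and 17.2% in the iron-sufficient and 20.4, 20.9 and 21.8% in the iron-deficient replicates. In both clusters the groups overlap. The most methylated regions with at least 5 members were chr18:38710224-38710312 with 94.3%, chr12:31101-31178 with 94.2% and chr16:21266697-21266784 with 94.1%.

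The chromosome 16 cluster was in between, with 68.3, 67.3 and 68.2% in the iron-sufficient and 68.8, 69.8 and 69.5% in the iron-deficient replicates. Here the groups do not overlap. Its 2 regions with the most members were chr16:27710707-27718883 with 114 members at 74.9% and chr16:27568233-27575884 with 89 members at 64.8%.

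**Figure D5:**
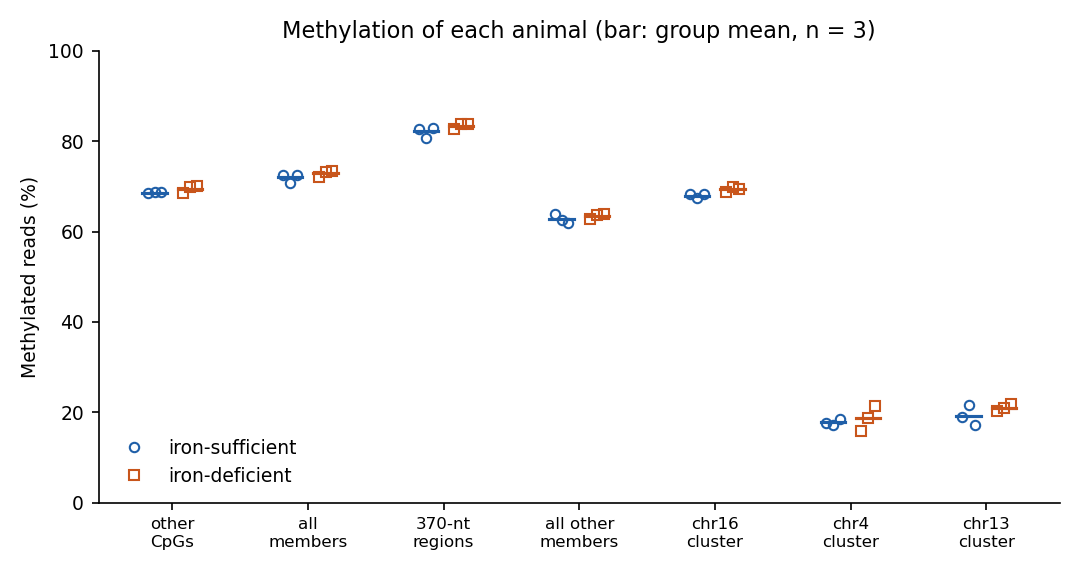
Percent of methylated reads in each animal (points) and group mean (bars, n = 3) for the other autosomal CpGs, all members, the 370-nt regions, all other members, and the clusters at chr16:27193792-28014406, chr4:75829743-75907461 and chr13:86911918-86962999. The 370-nt regions lie highest, and the clusters on chromosomes 4 and 13 overlap each other far below the remaining sets. The cluster on chromosome 16 overlaps the other autosomal CpGs. The groups lie close to each other within each set.

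The question of the study was whether iron deficiency changes methylation in the hippocampus. Over all members the methylation level was 72.0 ± 1.06% (SD, n = 3) in iron-sufficient and 73.0 ± 0.72% (SD, n = 3) in iron-deficient pups. The difference of 0.99 percentage points did not pass the two-sided exact permutation test (p = 0.3, with 0.1 the smallest p for 3 against 3). Without iron-sufficient replicate 2, the lowest animal, it was 0.37 percentage points (exact permutation p = 0.4). The other autosomal CpGs differed by 0.85 percentage points (exact permutation p = 0.3). The distance between members and other CpGs was 3.34 ± 1.13 percentage points in iron-sufficient and 3.48 ± 0.09 in iron-deficient pups (SD, n = 3, exact permutation p = 1).

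The study calls regions that hold a minimum number of CpGs. Here only its cuts for a CpG were used, without that minimum. They ask for 10 or more reads in each animal and a weighted p up to 0.05. Group means weighted by coverage must also lie 10 or more percentage points apart. At single CpGs these criteria were met by 234 of 9130 members (2.56%), 154 higher and 80 lower in iron-deficient pups. Over all 4663256 autosomal CpGs tested, 3.21% met them, so the share among the members is near the background. By direction the members had 1.69% higher and 0.876% lower, and all CpGs had 1.64 and 1.57%. Differences at members were small. The median absolute difference between groups was 3.00 percentage points, against 8.88 over all tested CpGs, and 7.55% of the members differed by 10 percentage points or more, against 46.7%. With a minimum difference of 20 percentage points, 21 members were left (0.23%), against 2.86% of all tested CpGs. By the rule members are far deeper than most tested CpGs, and the part of depth in these smaller differences was not tested.

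The replicates of both groups did not overlap at 666 members (7.29%) that were higher and 400 members (4.38%) that were lower in iron-deficient pups. Over all tested CpGs these were 2.68% and 2.43%. Neighbouring members are not independent, and 35.7% of the members lie in the chromosome 16 cluster, where the groups do not overlap. The part of depth in these shares was not tested. In tiles of 1000 nt, which pool neighbouring CpGs, 178 of 1643 tiles with a member (10.8%) were higher in iron-deficient pups without overlap and 49 (2.98%) were lower, compared with 5.93% and 4.08% of all 890601 tiles. The median difference between groups was 0.89 percentage points in member tiles and 0.74 in all tiles.

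A test of each tile across the genome made no call. With edgeR's quasi-likelihood test and Benjamini-Hochberg adjustment, 0 of 1643 member tiles and 0 of all tiles had an adjusted p of at most 0.05. At an unadjusted p under 0.05 it gave 0 member tiles against 3.02% of all tiles, and limma also gave 0 member tiles, against 4.33%. The single dispersion shared by all tiles in this fit was 0.347, and limma drew the variances of all tiles towards a common value. Neither follows coverage, so these 0 counts cannot show how the deeply covered member tiles compare with all tiles. With a dispersion that follows coverage, 28 member tiles (1.70%, 23 higher and 5 lower) had an unadjusted edgeR p under 0.05, against 2.99% of all tiles (1.90% higher and 1.10% lower). Of these, 0 passed the adjustment. The member tile with the smallest p in that fit was chr16:27609000-27609999 in the large cluster, with 20 members. It had 81.2, 80.9 and 81.1% in the iron-sufficient and 83.3, 83.7 and 83.0% in the iron-deficient replicates (edgeR adjusted p = 1). Its unadjusted edgeR p was 1.5e-05 in that fit and 0.727 with the single dispersion, and its unadjusted limma p was 0.732. The groups do not overlap there, and the difference is small.

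The largest differences without overlap are given as values only, since they were picked for their size. Higher in iron-deficient pups was chr16:39239363-39239751 with 53.5, 53.7 and 53.8% in the iron-sufficient and 73.2, 66.2 and 58.2% in the iron-deficient replicates. Its relative coverage was 31.6, 24.9 and 34.2 and 11.5, 20.9 and 31.3, and the iron-deficient animals with lower coverage had the higher methylation. At chr4:46498535-46498686 the order was the same, with methylation of 52.7, 51.3 and 52.0% and 66.8, 62.4 and 53.1%, and relative coverage of 147.8, 123.4 and 173.1 and 64.6, 104.8 and 142.6. At chr16:27721426-27721895, in the large cluster, methylation was 41.7, 39.3 and 37.6% and 47.8, 49.2 and 48.2%. The coverage there was 38.0, 26.7 and 36.8 and 29.0, 30.05 and 40.0, which overlaps between groups. Lower in iron-deficient pups were a pair of regions on chromosome 12. At chr12:4410432-4410543 the level was 87.1, 92.5 and 89.5% in the iron-sufficient and 80.5, 75.6 and 84.5% in the iron-deficient replicates. Its relative coverage was 21.3, 17.7 and 19.1 and 24.9, 22.8 and 27.6, higher in the iron-deficient replicates without overlap. At chr12:4404674-4405122 the level was 81.6, 85.8 and 76.2% and 71.8, 72.2 and 74.8%, and the relative coverage of 28.5, 21.2 and 26.8 and 33.0, 24.8 and 31.8 overlaps between groups. The part of coverage in these differences was not tested. The largest decrease was at chr14:56506965-56507415, described with its coverage below.

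The coverage of members in the diet groups is described without a test, because coverage in all 6 animals chose them. The rule asks for at least 10 times the median in every animal, so a position with coverage near the median in any animal is not a member. The share of autosomal coverage taken by members was 2.95 ± 0.14% (SD, n = 3) in iron-sufficient and 2.75 ± 0.12% (SD, n = 3) in iron-deficient pups, a difference of −0.21 percentage points. Iron-deficient replicate 1 was the lowest, and without it the difference was −0.14 percentage points. Most regions were covered to a similar degree in all animals. In the 500 regions with at least 5 members the highest animal was at a median of 1.46 times the lowest, 51 regions had a ratio of at least 2 and 10 of at least 3.

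The largest ratio, 7.52, was at chr14:56506965-56507415 with 9 members. Its relative coverage was 109.3, 21.5 and 110.9 in iron-sufficient replicates 1, 2 and 3 and 14.7, 18.4 and 21.2 in iron-deficient replicates 1, 2 and 3. Iron-sufficient replicates 1 and 3 thus stood apart from the other 4 animals, and iron-sufficient replicate 2 lay near the iron-deficient pups. Methylation was 61.6, 56.3 and 61.7% in the iron-sufficient and 41.6, 54.4 and 48.2% in the iron-deficient replicates. Methylation does not overlap between the groups, and the 2 animals with high coverage were the most methylated. Coverage also varied between animals at other regions. At chr20:25103249-25103635 the relative coverage was 182.8, 90.6 and 125.4 in the iron-sufficient and 106.0, 41.2 and 52.1 in the iron-deficient replicates, and at chr13:30458237-30458419 it was 175.6, 142.7 and 189.8 and 44.2, 108.2 and 157.8. The methylation level of the first was between 84.1 and 89.0% and that of the second between 80.5 and 83.1%. Iron-deficient replicate 2 had the lowest coverage in the first. In the second the lowest was iron-deficient replicate 1, as at chr14:56506965-56507415. That animal was also the lowest at the regions with the next largest ratios. These were chr16:39237540-39237602 (relative coverage 16.9), chr8:11969505-11969553 (11.6) and chr2:771517-771824 (11.9). Except at the chromosome 20 region, iron-deficient coverage rose from replicate 1 to 2 to 3 at each of these. A number of copies that differs between animals and other sources of coverage cannot be told apart here.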

How the data were processed

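Hippocampal WGBS libraries of 3 iron-sufficient and 3 iron-deficient pups, taken as separate animals from the labels and the methods of the study, were analysed. The authors sheared DNA, converted and amplified the libraries, sequenced 100-base single or paired reads, trimmed adapters and aligned them to rn4 with BS Seeker (v1). Overlapping reads of a pair were counted once, and the C and G of a CpG were merged. bcl2fastq is named in the submitters' processing notes. Not given in the sources used here are the treatment of duplicates and of reads with several alignments, and whether positions count from 0 or 1. For each sample the authors deposited the fraction of methylated reads at every CpG together with its coverage, an unnormalized count of reads. Fraction times coverage was within 0.01 of a whole number at every CpG and gave methylated counts.

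Members and lists were chosen with earlier results of these data known. Levels over reads are sums of methylated counts divided by summed coverage. Tiles of 1000 nt needed at least 5 CpGs listed in all samples and a summed coverage of at least 50 in each. Methylated and unmethylated counts were tested with edgeR 4.0.16 (quasi-likelihood, sample effects, common dispersion), with limma 3.58.1 as the alternative (R 4.3.3). P-values were adjusted over all tiles by the Benjamini-Hochberg method. Exact permutation tests, two-sided, served for single values of methylation. The planned tests of coverage between the diets, per sample and per tile, are void because the rule used coverage, and neither their p-values nor their calls are given. Other steps used Python 3.11.15, numpy 2.4.6, pandas 2.3.3 and scipy 1.17.1. Since the reads carry no molecular identifiers, intervals from their counts cover counting error only.

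Same-numbered samples of the groups did not deviate together over all tiles (correlations between −0.00466 and 0.011 for methylation and between 0.00736 and 0.0207 for coverage). Over member tiles they did so in coverage (0.268, 0.161 and 0.148) but not in methylation (0.036, −0.0285 and 0.0991), and the labels do not say what the numbers share. The replicate number was therefore used as a block only in an alternative. Regions named in the text were the 10 with the highest relative coverage, the 3 with the most members, the 3 highest and 3 lowest in methylation and the 3 largest differences in each direction without overlap, each among regions with at least 5 members (the 3 with the most members among all regions), together with member tiles past an adjusted p of 0.05 in methylation, of which there were 0. Regions chosen after their values were seen are the clusters, the 370-nt regions, those with the largest ratio of coverage, the tile chr16:27609000-27609999 and the region chr13:38126399-38126518. RefSeq promoter sequences are of GRCr8, and no annotation of rn4 was used.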

Additional observations from a re-analysis of the deposited data

How the results depend on the processing

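Which CpGs weigh most decided the direction against other CpGs. Members exceeded the other autosomal CpGs by 3.41 percentage points over reads, but the difference was −6.08 with each CpG counted once, −9.93 with each region and tile counted once and −1.72 without the 10 regions with the most coverage. Leaving out 1 animal gave 3.26 to 3.68, each with p = 0.0625 in the exact sign-flip test, the smallest p for 5 animals. The difference was 10.9 against CpGs with a coverage of at least 10, 4.31 against CpGs of the same tiles and 6.42 against CpGs at 5 to 10 times the median. The methylation difference between the diets, 0.99 percentage points, kept its direction under the alternatives run, with 0.37 to 1.397 when 1 animal was left out. The difference in coverage share, −0.21, a description since coverage chose the members, stayed negative, with −0.28 to −0.14. Without the cluster with the most members, chosen after seeing the data, the difference from other CpGs was 4.12, the diet difference in methylation 0.97 and that in coverage share −0.21.

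Of the 234 members that met the CpG criteria, 21 were left with a minimum difference of 20 percentage points (0.23%, against 2.86% of all tested CpGs), and 121 met unweighted criteria (1.33%, against 1.41%). Leaving out 1 animal gave 167 to 282 members. The lowest count was 1.83% of the members, against 3.63% of all tested CpGs (without iron-sufficient replicate 2). The highest was 3.09%, against 3.31% (without iron-sufficient replicate 3). Tile methylation gave 0 calls among member tiles and 0 among all tiles under every alternative run. With the replicate block, the diet difference in methylation had an exact sign-flip p = 0.5, with 0.25 the smallest for 3 pairs. The block changed no call.

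The 1660 regions became 3143 with a gap of 100 nt and 875 with a gap of 2000 nt. Members numbered 8118 with medians over the CpGs listed in all 6 samples. Repeated spacing was found for 57.0% of member runs of 4 distances and 13.5% of runs of 8, with 18.3% and 0.579% of all autosomal runs. With a partner exactly 370 nt away, chosen after seeing the data, 54 instead of 98 regions had the 370-nt spacing. The cause of these shifts was not tested.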
